A study of Homo sapiens with 12 samples.

Results

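The genes described here are 34 interferon-stimulated genes, a list of symbols that was drawn up with earlier results of these data known and looked up in both deposited expression tables. All 34 were found in each table, of 55514 genes listed for the ZNF683 and Mock libraries and 44389 listed for the doxycycline libraries. The RNA sequencing data cover 12 libraries of Jurkat, a human leukaemic T cell line, grown in RPMI with fetal calf serum. The first table holds 3 libraries titled Hobit, whose genotype is given as Dox-induced ZNF683 (called ZNF683 here), and 3 titled Mock. The second holds 3 libraries titled Hobit with Dox+ and 3 with Dox-. Hobit, the zinc finger protein that ZNF683 encodes, is a transcription factor of lymphocytes, and the labels give doxycycline at 1 ug/uL without saying whether the Mock cells received it. The labels also do not say what drives the ZNF683 construct, whether a line was 1 clone, or whether replicates were grown as separate cultures. A p-value here therefore reflects library-to-library spread alone, which may be technical. Values are in TPM, an abundance corrected for transcript length and scaled to a common total per library, so levels can be set side by side between genes. Group values are mean ± SD with n = 3 libraries unless stated. Sequencing depth cannot be read from TPM and is unknown, so no counting interval is given.

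Type I interferons bind the receptor chains IFNAR1 and IFNAR2, and the kinases JAK1 and TYK2 then activate STAT2-containing complexes with IRF9, which bind interferon-stimulated response elements (ISREs) in the promoters of genes whose products sense viral RNA, degrade or sequester it, block virus entry and release, or modify proteins with the ubiquitin-like ISG15. Interferon gamma acts through gamma-activated sites (GAS elements), of which IRF1 is a well-known target, and many of these genes keep a basal level without added interferon.

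The promoter sequences show what the group has in common at the DNA level, independent of the expression values. RefSeq promoter windows, from 250 bases before to 50 bases after an annotated start on GRCh38.p14, were matched for 27 of the 34 genes (DDX58 under its current symbol RIGI). IFIT2, USP18, OASL, MX2, IRF7, IFITM2 and OAS2 had no entry in the table used. The ISRE core searched was GAAANNGAAA on either strand, and 20 of the 27 genes held it (74.1%), against 1195 of all 27305 genes with a window (4.38%) and 3.57% of all 35116 windows. The GAS core searched was TTCNNNGAA, which reads the same on both strands. It was present in 9 of the 27 (33.3%), against 9.38% of all genes and 7.66% of all windows, and in 5 of those 9 (BST2, EPSTI1, IFI27, IFITM1 and MX1) a GAS match overlapped an ISRE match. The 4 most abundant genes with an ISRE core, and IRF1, which had only a GAS core, are shown 5′ to 3′ on the strand of the gene, with ISRE core matches in capitals (for IRF1, the GAS core match).
ISG15, chr1:1013359-1013424, plus strand: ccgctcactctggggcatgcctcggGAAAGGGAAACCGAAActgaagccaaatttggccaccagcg
IFITM1, chr11:313975-314034, plus strand: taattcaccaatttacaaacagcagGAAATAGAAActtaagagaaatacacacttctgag
IFI6, chr1:27672251-27672373, minus strand: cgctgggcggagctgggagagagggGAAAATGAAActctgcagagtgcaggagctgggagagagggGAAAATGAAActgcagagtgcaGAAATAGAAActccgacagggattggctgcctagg
BST2, chr19:17405720-17405785, minus strand: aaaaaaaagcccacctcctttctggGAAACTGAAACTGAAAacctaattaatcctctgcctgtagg
IRF1, chr5:132490864-132490922, minus strand: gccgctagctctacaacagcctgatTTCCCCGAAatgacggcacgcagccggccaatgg

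In ISG15 and BST2 the capitals are 2 overlapping ISRE cores, starting at -113 and -107 of the ISG15 start and at -130 and -124 of the BST2 start. IFI6 held 3 separate cores within its window, at -156, -115 and -93. IFITM1 held the core shown at -40 and a further one at -6 that runs over the start and is not printed. PARP9 and DTX3L, which encode a PARP family protein and its ubiquitin ligase partner, are transcribed away from each other from starts 38 bases apart. A single ISRE core starts at -41 of PARP9 and at -6 of DTX3L, running over the DTX3L start. Another RefSeq start of PARP9 lies 446 bases from that of DTX3L. The 7 matched genes without an ISRE core in these windows were DDX58, IFI35, IRF1, IRF9, OAS1, STAT2 and XAF1, of which 4 held a GAS core.

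**Figure D1:**
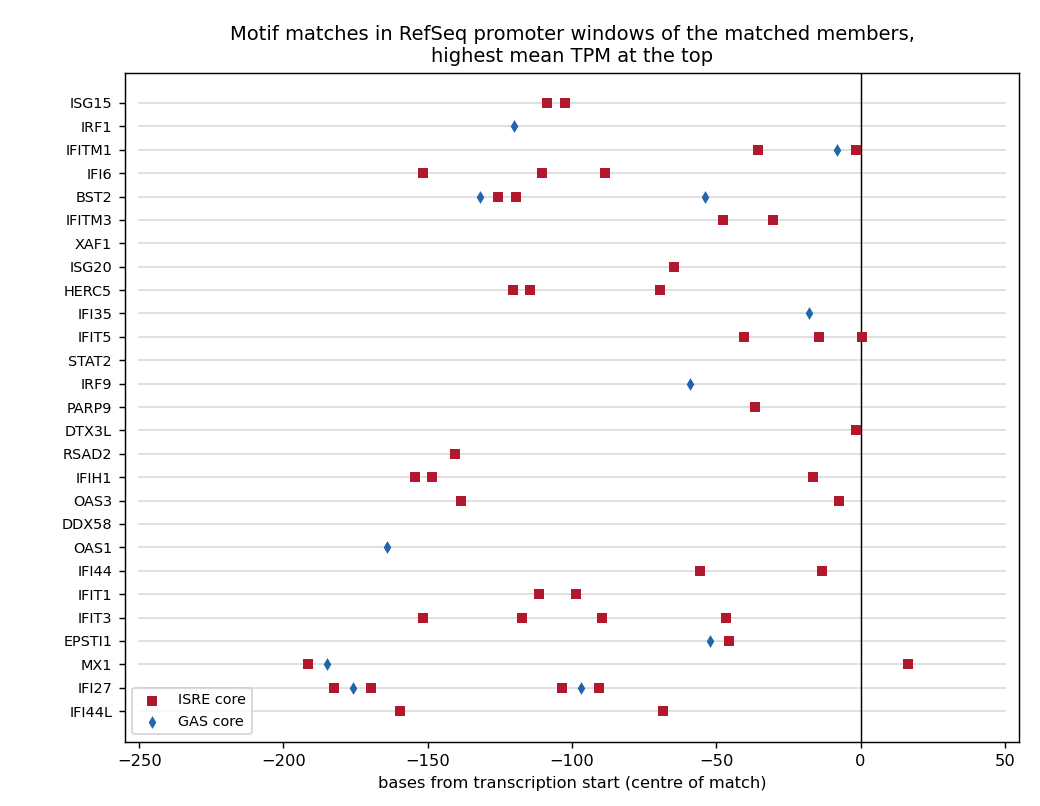
Matches of the ISRE core (squares) and GAS core (diamonds) in the RefSeq promoter windows of 27 interferon-stimulated genes, placed by the centre of the match in bases from the transcription start, with genes ordered from the highest mean TPM at the top. All windows of a gene with several starts are drawn on 1 line, and 20 of the 27 lines carry a square.

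The libraries carried T cell transcripts, and 2 Dox- libraries stood apart from the rest. All 10 T cell markers examined were present throughout (CD3D at 447 to 1332 TPM), while the B cell marker MS4A1 stayed at or under 0.268 TPM beside CD79A at 8.90 to 54.7 TPM. Of the plasmacytoid dendritic cell markers, CLEC4C and LILRA4 were at most 0.662 TPM, and summed over 5 genes that list was 5.67 to 6.01 TPM in ZNF683, 6.04 to 8.81 in Mock, 3.36 to 4.50 in Dox+ and 1.73 to 3.75 in Dox- libraries, mostly TCF4. The 5 myeloid markers summed to at most 2.49 TPM and the 5 NK cell markers to at most 4.50 TPM in any library. The 5 stromal or epithelial markers summed to 5.41 to 8.37 TPM in ZNF683, 5.99 to 9.10 in Mock, 2.83 to 3.04 in Dox+ and 1.64 to 20.4 in Dox- libraries. ZNF683 was at 1.17, 1.76 and 1.04 TPM in the ZNF683 libraries and 0.715, 1.59 and 0.681 TPM in the Mock libraries, with overlap. It was at 0.453, 0.774 and 0.571 TPM in Dox+ and 0.115, 0.239 and 0.451 TPM in Dox- libraries. Those groups did not overlap, by a narrow margin between Dox+ library 1 and Dox- library 3. Levels this low do not firmly check the labels. In Dox- library 1 a single noncoding transcript, AL135790.1, took 50.7% of all TPM, against 6.65% to 12.8% in the other libraries of that table, which lowers every other gene in it. Median-of-ratios scaling, which divides each library by a typical gene's ratio, gave Dox- library 1 a size factor of 0.583 and the other 5 libraries 1.05 to 1.2. Dox- library 2 had 637 TPM of the stress-induced chaperone gene HSPA6 (0.351 TPM or less in the rest of the table) and 17 TPM of the collagen gene COL1A1. The part of these features in the results was not tested, and the counts and medians of the members for doxycycline are given with and without scaling.

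Most of the 34 genes were expressed in every library. Averaged over the 12 libraries, 6 genes were at 50 TPM or more, 13 between 10 and 50 TPM, 14 between 1 and 10 TPM, and 1 under 1 TPM. Together they summed to 1121 to 1401 TPM in the ZNF683 and Mock libraries and to 980 to 1006 TPM with doxycycline. The Dox- libraries summed to 422, 619 and 939 TPM, so that the first and second lay far under the rest and the third close to the Dox+ libraries. The 6 most abundant genes (ISG15, IFITM2, IRF1, IFITM1, IFI6 and BST2) held 58.7% to 68.4% of the sum, and ISG15 was the highest gene in 11 of 12 libraries. The exception was Dox- library 1, led by IFITM1 at 50.8 TPM.

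**Figure D2:**
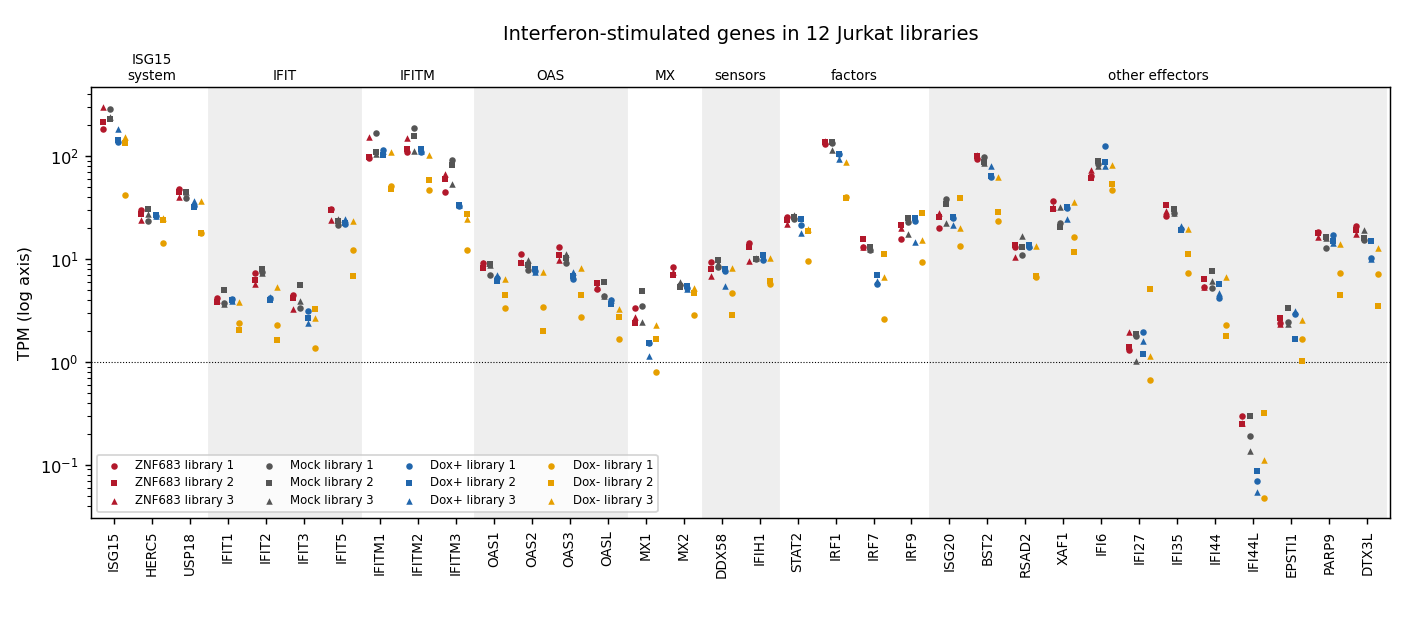
TPM of each of the 34 genes (log axis) in the 12 libraries, coloured by group and shaped by library number, ordered by role. The dotted line marks the mean of 1 TPM needed for testing, under which only IFI44L lies in all 12 libraries, and the lowest point of most genes is a Dox- library.

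The spread within a group is given beside that of all genes, with no test. The median coefficient of variation over the 33 tested members was 11.4% in ZNF683 libraries, 12.6% in Mock, 7.21% in Dox+ and 49.5% in Dox-, against 12%, 13.5%, 11.4% and 45.2% over all genes tested, so that the members' median was lower in Dox+. Doxycycline comparisons thus rest on a control group that varied several-fold more than the other 3 groups.

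Between ZNF683 and Mock libraries no interferon-stimulated gene passed the test, and the members as a group did not lean to either side. A gene was tested where its mean over the 6 libraries of the table was at least 1 TPM, with limma on log2(TPM + 1), a scale that understates the change of low genes, and Benjamini-Hochberg adjustment over all genes tested (threshold 0.05). Of the 33 members tested, 0 passed, against 5 of 16588 genes overall (0.0301%). At an unadjusted p under 0.05 there were 3 members (MX2 and XAF1 with higher, IFI6 with lower means in ZNF683 libraries), against 13% of all genes. The log2 change was positive in 16 and negative in 17, with a range from -0.38 to 0.42 and standard errors of 0.10 to 0.23. Its median was -0.0014, beside a median of 0.03 and 54.9% positive for all genes tested. After median-of-ratios scaling it was positive in 18 and negative in 15. The scaled median was 0.03, beside 0.07 and 61.9% positive for all genes. The 3 ZNF683 libraries lay above all 3 Mock libraries for 1 member (8.71% of all genes) and below them for 2 (8.51%). With median-of-ratios scaling these counts were 5 (11.8% of all genes) and 1 (7.24%).

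Between Dox+ and Dox- libraries no member passed either, although nearly all had higher means with doxycycline. Of the 33 tested, 0 passed with limma, against 60 of 15148 genes overall (0.396%), and 4 had an unadjusted p under 0.05 (IRF1, BST2, PARP9 and OAS2, all higher with doxycycline), against 6.34% of all genes. The log2 change was positive in 31 and negative in 2, with a median of 0.49, beside a median of 0.32 and 79.1% positive for all genes tested. With median-of-ratios scaling it was positive in 29 and negative in 4, with a median of 0.32, beside 0.13 and 64.3% for all genes. All 3 Dox+ libraries lay above all 3 Dox- libraries for 8 members (7.91% of all genes) and below them for 0 (0.891%). After scaling these counts were 9 (9.34%) and 0 (3.72%), and 6 members were in both sets of higher genes. The T cell markers also had higher means with doxycycline, in 10 of 10, with a median log2 change of 0.79 and a range from 0.42 to 1.28 (median 0.56 after scaling). Their Dox+ libraries lay above all Dox- libraries in 7 (8 after scaling), none passed, and their part in the values of the members was not tested. Standard errors were 0.39 to 0.43 for every member, because limma took the spread of a gene here from other genes of its level, and the highest member change, 0.97 for IRF1, did not pass. Without Dox- library 3, the Dox- library nearest to the Dox+ libraries, 11 members passed, as did 2788 of 15127 genes overall (18.4%). Among them were IRF1, BST2, PARP9, IFITM2 and IFITM1 (limma adjusted p = 0.0342 for each), with log2 changes of 1.35, 1.36, 1.29, 1.10 and 1.13. With scaling and without that library 0 members passed. With scaling, the median was 0.46, 0.10 or 0.48 without Dox- library 1, 2 or 3, beside 0.16, 0.04 or 0.17 for all genes.

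The change for ZNF683 against Mock minus that for Dox+ against Dox- was also tested, gene by gene, over the 12 libraries, each change taken within its own table. A common spread per gene was fitted over all groups, although the Dox- libraries varied far more than the others, so these p-values may be too small. None of the 33 members passed with limma, against 2 of 14468 genes (0.0138%), and 4 had an unadjusted p under 0.05 (3.75% of all genes): IFI6, IFITM3, IFITM2 and IRF1, each with a smaller log2 change for ZNF683 against Mock than for Dox+ against Dox-. The smallest adjusted p was 0.876. Most genes shared this direction as deposited. The difference was positive in 3 members and negative in 30 (median -0.53), beside a median of -0.28 and 19.2% positive for all genes. Of the 543 genes with an unadjusted p under 0.05, 487 were lower. After median-of-ratios scaling the member median was -0.27, beside -0.05 and 44.0% positive for all genes. There 2 members had an unadjusted p under 0.05 by limma, against 478 of 14468 genes.

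**Figure D3:**
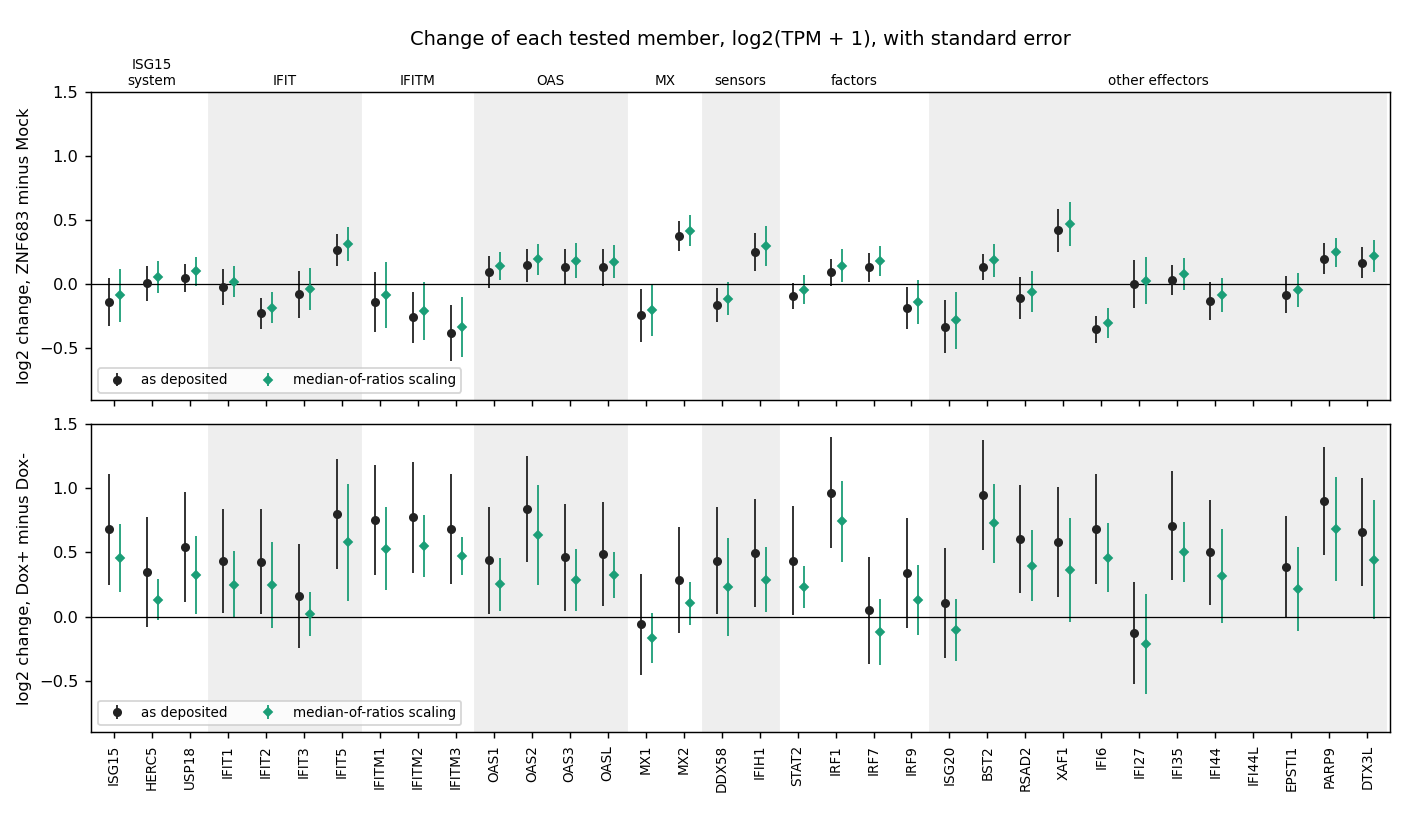
Log2 change of the 33 tested members with its standard error, ZNF683 minus Mock above and Dox+ minus Dox- below, as deposited (black) and with median-of-ratios scaling (green). Values lie on both sides of 0 above and mostly over 0 below, where the bars are wider and scaling moves every gene down.

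Interferons themselves were hardly detected, while the machinery that answers them was present. The 21 ligand genes listed included 8 in the first table and 4 in the doxycycline table, all under 1 TPM in every library. IFNB1, the interferon beta gene, was at 0.0575 to 0.286 TPM in the ZNF683 and Mock libraries and at 0 to 0.204 TPM in the doxycycline libraries, and IFNG, the interferon gamma gene, did not exceed 0.12 TPM. The highest ligand value was 0.514 TPM, for IFNL1, and no ligand was tested. Of 9 genes for receptors and kinases, 8 were tested in each comparison and none passed. IFNAR1 was at 34.2 to 75.4 TPM, IFNAR2 at 40.8 to 89.9 TPM, JAK1 at 19.4 to 49.7 TPM and TYK2 at 22.1 to 75.3 TPM over the 12 libraries. IFNLR1, the specific chain of the interferon lambda receptor, stayed under 0.7 TPM. Log2 changes of this list were positive in 5 of 8 for ZNF683 (7 after scaling) and in 8 of 8 for doxycycline (7 after scaling).

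Genes that sense nucleic acids and induce interferon ranged from absent to very high. IFI16, a DNA sensor, had the highest level of the list at 151 to 360 TPM, and STING1, the adaptor of cytosolic DNA sensing, was at 18.8 to 63.4 TPM, while CGAS, the enzyme upstream of STING1, was at 0.0756 to 0.792 TPM. Of 19 genes, 13 were tested for ZNF683 against Mock (10 positive, 3 negative) and 11 for doxycycline (11 positive, or 8 after scaling), and none passed. The smallest adjusted p for ZNF683 was that of TRAF3, an adaptor of this pathway, at 8.74 against 5.38 TPM (log2 change 0.61 ± 0.13, adjusted p = 0.261). For doxycycline it was that of MYD88, the adaptor of Toll-like receptors. MYD88 was at 41.1, 47.6 and 50.8 TPM in Dox+ and 19.4, 5.47 and 52.1 TPM in Dox- libraries. Its groups overlapped, with Dox- library 3 above every Dox+ library (46.5 against 25.7 TPM, log2 change 1.31 ± 0.43, limma adjusted p = 0.268). None of the 10 negative regulators passed in either comparison (9 positive for ZNF683, 10 for doxycycline, the same counts after scaling). SOCS3 had the smallest adjusted p of the list for ZNF683, at 2.02 against 1.42 TPM without overlap (limma adjusted p = 0.365). SOCS1, which inhibits JAK kinases, was at 2.24, 10.2 and 7.95 TPM in ZNF683 and 3.27, 2.88 and 2.82 TPM in Mock libraries. Its groups overlapped, with ZNF683 library 1 below every Mock library (6.79 against 2.99 TPM, adjusted p = 0.426). The ubiquitin ligase gene TRIM21 was at 32.8 against 17 TPM for Dox+ against Dox- (adjusted p = 0.504).

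**Figure D4:**
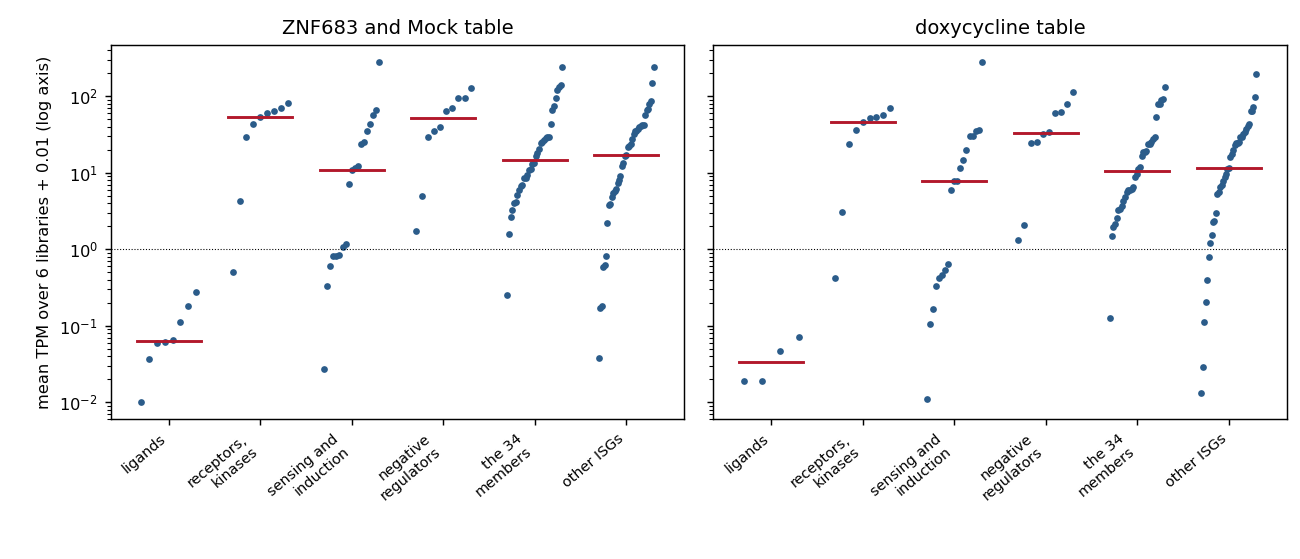
Mean TPM plus 0.01 (log axis) of each gene of the interferon pathway lists over the 6 libraries of each table, with genes of a list ordered by level and the list median as a red line. Ligand genes lie under the dotted line at 1 TPM in both tables, while every other list has a median above it.

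A further 39 interferon-stimulated genes outside the 34 were examined as well. Of these, 33 were tested in each comparison and none passed. The log2 change was positive in 19 of 33 for ZNF683 (22 after scaling) and in 29 of 33 for doxycycline (27 after scaling). UBA7, the activating enzyme for ISG15 conjugation, had the smallest adjusted p for ZNF683, at 4.05 against 6.86 TPM in Mock (log2 change -0.64 ± 0.12, adjusted p = 0.225), with no overlap between the groups. NMI, which encodes a partner of IFI35, had it for doxycycline, at 123 against 74.8 TPM (log2 change 1.02 ± 0.43, adjusted p = 0.661). UBE2L6, the ISG15 conjugating enzyme, was abundant at 103 to 258 TPM in the 12 libraries.

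Among the transcription factors of the 34, IRF1 (chr5:132481609-132490798, minus strand, GENCODE v29) was the most abundant. It activates interferon and interferon-stimulated genes and is itself an early target of interferon gamma. It was at 106, 106 and 93.4 TPM in the Dox+ libraries and at 39.9, 38.8 and 87.6 TPM in the Dox- libraries. The groups did not overlap, with Dox- libraries 1 and 2 well under the rest and Dox- library 3 close to Dox+ library 3 (102 ± 7.06 against 55.4 ± 27.9 TPM, log2 change 0.97 ± 0.43, limma adjusted p = 0.722). After scaling the Dox- libraries were at 68.4, 31.7 and 74.3 against 88.9 to 94.3 in Dox+, still without overlap. Its levels hardly varied in the other table, at 132, 139 and 140 TPM in ZNF683 and 135, 137 and 115 TPM in Mock libraries (log2 change 0.09 ± 0.11, adjusted p = 0.690). STAT2 and IRF9, which act in a common complex, were at 24.0 ± 1.79 against 25.6 ± 0.905 TPM and at 19 ± 3.03 against 21.8 ± 3.76 TPM for ZNF683 against Mock. IRF7, which amplifies type I interferon production, was at 13.9 ± 1.46 against 12.6 ± 0.463 TPM there. With doxycycline IRF7 was at 5.70, 6.99 and 6.05 TPM, within the wide range of the Dox- libraries at 2.63, 11.3 and 6.66 TPM, and its log2 change went from 0.05 to -0.12 with scaling.

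The ISG15 system was led by ISG15 itself (chr1:1001138-1014540, plus strand), a ubiquitin-like protein that is joined to other proteins and also secreted. It was at 185, 213 and 301 TPM in the ZNF683 libraries and 287, 229 and 242 TPM in Mock. The groups overlapped, with ZNF683 library 3 above every Mock library (233 ± 60.6 against 252 ± 30.4 TPM, log2 change -0.14 ± 0.18, limma adjusted p = 0.727). Without ZNF683 library 1 the log2 change was 0.011. For Dox+ and Dox- ISG15 was at 138, 142 and 184 TPM against 41.9, 135 and 153 TPM, so that only Dox- library 1 lay far from the rest (log2 change 0.68 ± 0.43, adjusted p = 0.737). This change was 0.46 after scaling and 0.095 without Dox- library 1. HERC5 (chr4:88457117-88506163, plus strand), the main ligase that attaches ISG15, was at 26.1, 27.1 and 25.9 TPM in Dox+ and 14.2, 24.1 and 25.1 TPM in Dox- libraries. These groups were apart as deposited by a narrow margin between Dox+ library 3 and Dox- library 3 (log2 change 0.35 ± 0.43, adjusted p = 0.770) and overlapped after scaling. For ZNF683 against Mock HERC5 had equal means, 27.0 ± 3.05 and 27.0 ± 3.53 TPM. USP18, which removes ISG15 and damps signalling at IFNAR2, was at 44.4 ± 4.10 against 42.8 ± 3.22 TPM for ZNF683 against Mock and 33.9 ± 2.39 against 24.3 ± 11.0 TPM for Dox+ against Dox-.

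The IFITM genes encode small membrane proteins that block the fusion of incoming viruses. All 3 had lower means in ZNF683 than in Mock libraries, as deposited and with scaling, and none passed. IFITM1 (chr11:313506-315272, plus strand) was at 95.9, 97.4 and 153 TPM in ZNF683 and 167, 109 and 105 TPM in Mock libraries. One library of each group was high, and the groups overlapped (log2 change -0.14 ± 0.23, adjusted p = 0.786, or 0.08 without Mock library 1). IFITM2 (chr11:307631-315272, plus strand) was at 109, 119 and 150 TPM against 189, 158 and 112 TPM (log2 change -0.26 ± 0.20, adjusted p = 0.553). IFITM3 (chr11:319669-327537, minus strand) was at 45.3, 59.6 and 67.3 TPM against 91.5, 82.2 and 54.1 TPM (log2 change -0.38 ± 0.22, adjusted p = 0.451). In both of these Mock library 3 lay among the ZNF683 libraries.

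With doxycycline the IFITM genes had close values in the 3 Dox+ libraries and spread-out values in the Dox- libraries. IFITM2 was at 111, 116 and 113 TPM in Dox+ and at 46.6, 58.9 and 104 TPM in Dox- libraries, without overlap (113 ± 2.73 against 69.8 ± 30.1 TPM, log2 change 0.77 ± 0.43, limma adjusted p = 0.737). IFITM3 was at 32.8, 33.6 and 33.8 TPM against 12.4, 27.5 and 24.8 TPM, also without overlap (log2 change 0.69 ± 0.43, adjusted p = 0.737). After scaling IFITM3 was at 21.2, 22.5 and 21.0 in the 3 Dox- libraries and 28.7 to 32.2 in Dox+, so that all 3 Dox- libraries lay together below the Dox+ range (log2 change 0.47 ± 0.15, adjusted p = 0.688). IFITM1 was at 114, 103 and 112 TPM against 50.8, 48.2 and 109 TPM, and its groups overlapped through Dox- library 3 (log2 change 0.75 ± 0.43, adjusted p = 0.737). IFITM1 and IFITM2 share exon sequence on the same strand in GENCODE v29, so the split of reads between them is uncertain. IFITM1, IFITM2 and IFITM3 are also near-identical copies, so the split of reads may be uncertain for IFITM3 too, which was not tested.

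The IFIT genes, whose products bind viral RNA with foreign 5′ ends, were of moderate to low level. IFIT2 (chr10:89283694-89309276, plus strand) was at 7.23, 6.24 and 5.66 TPM in ZNF683 and 7.41, 8.04 and 7.40 TPM in Mock libraries. The groups were apart as deposited, though ZNF683 library 1 came close to Mock, and overlapped after scaling (6.38 ± 0.797 against 7.62 ± 0.371 TPM, log2 change -0.23 ± 0.12, limma adjusted p = 0.432). IFIT5 was the most abundant of the family at 28.0 ± 3.66 against 23.1 ± 1.67 TPM (log2 change 0.26 ± 0.12, adjusted p = 0.407), and its groups were apart only after scaling. IFIT1 and IFIT3 differed by 0.08 or less on the log2 scale. With doxycycline all 4 had positive log2 changes, from 0.16 to 0.80 (0.02 to 0.58 after scaling), and IFIT1 was apart as deposited at 3.88 to 4.08 TPM against 2.05 to 3.84 TPM.

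The OAS enzymes make the 2′-5′-linked oligoadenylates that activate RNase L, and OASL is a family member without that activity. All 4 were expressed at 1.69 to 13.2 TPM, and all 4 had slightly higher means in ZNF683 than in Mock libraries, by 0.10 to 0.14 on the log2 scale (0.14 to 0.19 after scaling), with standard errors of 0.13 to 0.14 and overlapping groups. With doxycycline the changes were 0.44 to 0.84 (0.25 to 0.63 after scaling). OAS2 had the largest, from 7.43 to 7.97 TPM in Dox+ and 3.43, 2.02 and 7.53 TPM in Dox- libraries (log2 change 0.84 ± 0.42, limma adjusted p = 0.737). Dox- library 3 lay within the Dox+ range there, and the groups were apart after scaling.

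MX2 (chr21:41361943-41409390, plus strand), a dynamin-like GTPase known as a nuclear import block to HIV-1, was the only member whose 3 ZNF683 libraries all exceeded the Mock libraries as deposited. It was at 8.46, 6.97 and 7.53 TPM in ZNF683 and 5.62, 5.37 and 6.05 TPM in Mock libraries. The means were 7.65 ± 0.749 and 5.68 ± 0.344 TPM, 135% of Mock, with a log2 change of 0.37 ± 0.12 and a limma adjusted p of 0.316 (0.42 ± 0.12 and 0.283 after scaling). In the doxycycline table MX2 was at 5.20, 5.45 and 5.12 TPM against 2.87, 4.68 and 5.18 TPM, with overlap. Its paralog MX1, a cytoplasmic block to influenza virus and the neighbouring gene, was lower and did not share the direction, at 2.82 ± 0.488 against 3.61 ± 1.23 TPM for ZNF683 against Mock (log2 change -0.24 ± 0.21, adjusted p = 0.582) and 1.40 ± 0.224 against 1.57 ± 0.734 TPM for Dox+ against Dox-. The difference between MX1 and MX2 was not tested.

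The RNA sensors DDX58 (RIG-I) and IFIH1 (MDA5), which detect viral RNA in the cytosol, were at 8.11 ± 1.2 against 9.14 ± 0.648 TPM and at 12.3 ± 2.46 against 10.0 ± 0.104 TPM for ZNF683 against Mock, with overlapping groups. For Dox+ against Dox- they were at 7.05 ± 1.33 against 5.27 ± 2.71 TPM and at 10.5 ± 0.619 against 7.36 ± 2.50 TPM, also with overlap.

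Of the remaining effectors, IFI6 (chr1:27666061-27672218, minus strand), a small membrane protein that limits flavivirus replication, had the lowest adjusted p of any member for ZNF683 against Mock as deposited (after scaling MX2 had it, at 0.283, and IFI6 was at 0.320 by limma). It was at 63.6, 61.4 and 73.2 TPM in ZNF683 and 83.8, 90.1 and 79.8 TPM in Mock libraries. The groups were apart as deposited and after scaling (66.1 ± 6.30 against 84.6 ± 5.19 TPM, 78.1% of Mock, log2 change -0.35 ± 0.11, limma adjusted p = 0.308). For Dox+ and Dox- it was at 125, 87.7 and 80.0 TPM against 46.9, 53.9 and 81.6 TPM. Dox+ library 1 was the highest of the 12 libraries there, and Dox- library 3 lay within the Dox+ range (log2 change 0.68 ± 0.43, adjusted p = 0.737). The change of IFI6 for ZNF683 minus that for doxycycline was -1.04 ± 0.37 (unadjusted p = 0.0121 and adjusted p = 0.876, limma). Its standard error is below the 0.43 of the doxycycline change alone, because a common spread was fitted over all groups. These p-values may therefore be too small.

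BST2 (chr19:17402939-17405648, minus strand), the tetherin that holds budding virions at the cell surface, was at 62.8, 63.8 and 79.8 TPM in Dox+ and 23.5, 28.7 and 62.7 TPM in Dox- libraries. The groups were apart, though Dox- library 3 fell just short of Dox+ library 1 (68.8 ± 9.52 against 38.3 ± 21.3 TPM, log2 change 0.95 ± 0.43, limma adjusted p = 0.736). After scaling they were apart still, at 54.9 to 76.0 against 40.3, 23.5 and 53.1. For ZNF683 against Mock BST2 was at 94.0, 101 and 102 TPM against 97.7, 87.9 and 85.2 TPM, overlapping through Mock library 1 (log2 change 0.13 ± 0.10, adjusted p = 0.540).

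PARP9 (chr3:122527924-122564577, minus strand) was at 17.3, 14.8 and 14.3 TPM in Dox+ and 7.27, 4.49 and 13.9 TPM in Dox- libraries, without overlap (15.5 ± 1.56 against 8.57 ± 4.86 TPM, log2 change 0.90 ± 0.42, limma adjusted p = 0.737). Its head-to-head neighbour DTX3L was at 10.3, 14.9 and 10.0 TPM against 7.08, 3.50 and 12.7 TPM, with the lowest value in the same library, Dox- library 2. Exons of the pair overlap on opposite strands, and whether the counting used strand is not given in the sources used here, so their values may not be separate. For ZNF683 against Mock both had higher means, 17.5 ± 1.09 against 15.2 ± 2.0 TPM for PARP9 and 19.1 ± 1.68 against 16.9 ± 2.0 TPM for DTX3L, and PARP9 was apart after scaling only, DTX3L in neither case. In all, 13 of the 34 members share exon sequence with another gene in GENCODE v29, 4 on the same strand and 10 on the opposite one, RSAD2 with CMPK2 among the latter.

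XAF1, a pro-apoptotic antagonist of XIAP, had the highest log2 change of any member for ZNF683 against Mock, 0.42 ± 0.17 (33.1 ± 2.96 against 24.9 ± 6.21 TPM, limma adjusted p = 0.365), with overlap through Mock library 3 at 32.0 TPM as deposited and none after scaling. ISG20, an RNA exonuclease, was at 24.6 ± 4.18 against 31.6 ± 8.05 TPM, and with doxycycline its log2 change went from 0.11 to -0.11 with scaling. RSAD2, the viperin gene, whose product makes a chain-terminating nucleotide, was at 12.4 ± 1.75 against 13.6 ± 2.84 TPM and at 13.5 ± 0.308 against 8.95 ± 3.75 TPM. IFI35, IFI44, EPSTI1 and IFI27 differed by 0.13 or less on the log2 scale for ZNF683 against Mock. IFI44L was the single member not tested, at 0.0472 to 0.322 TPM (two-sided exact permutation p = 0.3 for ZNF683 against Mock and 0.4 for doxycycline, where 0.1 is the smallest possible with 3 against 3 libraries). Its neighbour on chromosome 1, IFI44, was at 1.77 to 7.66 TPM. The promoter window of IFI44L holds 2 ISRE cores, and the windows of IFI44 hold an ISRE core as well.

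The Dox- libraries differed among themselves in these genes. Against the mean of the Dox+ libraries as deposited, the median member differed by -0.87 in Dox- library 1, -0.78 in Dox- library 2 and -0.02 in Dox- library 3 on the log2 scale, and the median of all genes tested differed by -0.83, -0.16 and 0.07. After scaling the members differed by -0.10, -0.84 and -0.11, and all genes by -0.05, -0.28 and -0.02. Dox- library 1 was thus low for these genes by about as much as for all genes and came near the Dox+ libraries after scaling, whereas Dox- library 2 stayed low. These values describe single libraries and carry no test.

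In Dox- library 2, scaled values lay below every Dox+ library for 27 of the 33 members tested (56.6% of all genes) and above every one for 4 (28.9%). The same counts were 13 (36.3%) and 5 (21.9%) for Dox- library 1 and 19 (25.5%) and 4 (16.6%) for Dox- library 3. Relative to the scaled Dox+ mean, Dox- library 2 had 23.7% for OAS2, 26.3% for PARP9, 27.0% for IFIT5, 27.0% for DTX3L and 34.5% for IRF1. Other members were nearer to the Dox+ mean, with ISG15 at 78.0%, STAT2 at 80.4% and HERC5 at 82.4%. A few were higher, with IRF9 at 121%, ISG20 at 149%, IRF7 at 163% and IFI27 at 294%. The members thus did not all lie on 1 side in this library, which was also the one with high HSPA6. These genes were chosen after their values were seen.

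**Figure D5:**
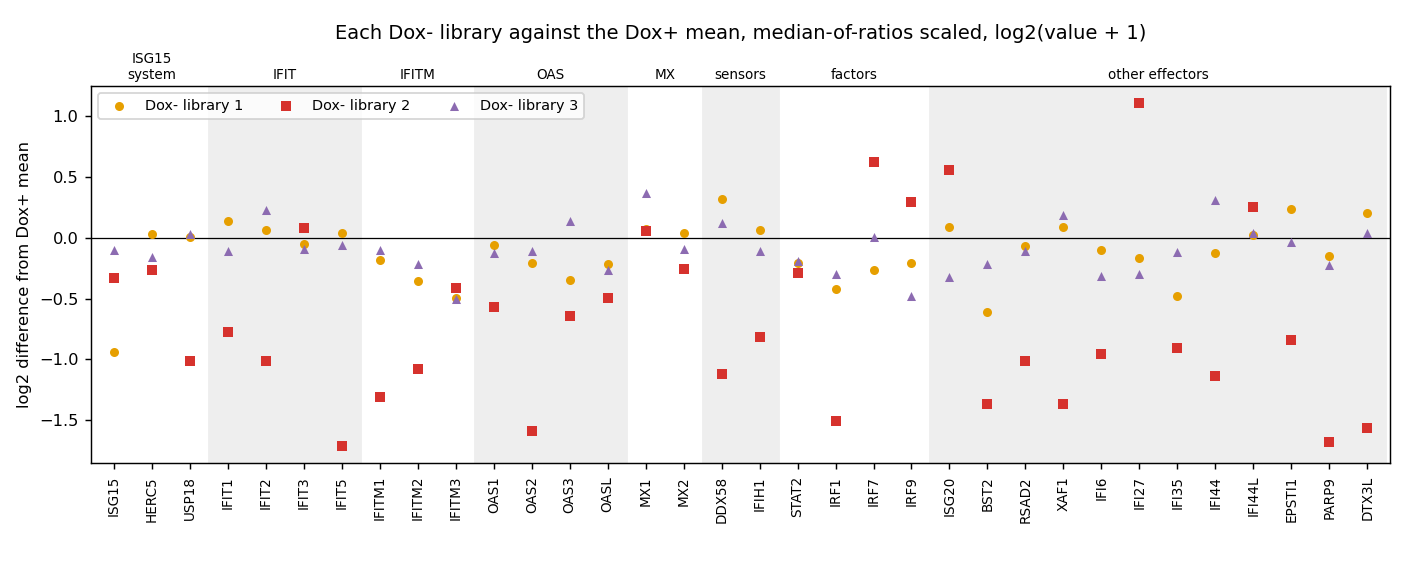
Difference of each Dox- library from the Dox+ mean for the 34 members on the scale log2(value + 1) after median-of-ratios scaling. Dox- library 2 (red squares) lies below every Dox+ library in 27 members, down to -1.71 for IFIT5, and well above 0 for IFI27, IRF7 and ISG20. Dox- libraries 1 and 3 lie mostly nearer to 0, though below every Dox+ library in 13 and 19 members, with ISG15 at -0.94 in Dox- library 1.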

How the data were processed

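The authors deposited 2 tables of TPM per gene symbol, one for the ZNF683 and Mock libraries and one for the Dox+ and Dox- libraries. Extraction used Qiagen RNeasy and library preparation a NEBNext low-input kit, per the labels' protocols. The tools, kallisto 0.46.0 and DESeq2 1.22.2, are named without a role in the submitters' processing notes. Neither a genome build nor an annotation was given in the sources used here. Because TPM are not counts, limma 3.58.1 in R 4.3.3 was run on log2(TPM + 1), with a mean-variance trend, two-sided, for genes averaging 1 TPM or more, separately in each table. Groups came from the genotype labels. The procedure was tested on simulated data. The members and lists were chosen with earlier results of these data known, and the GAS core and the scaled fits without a Dox- library were added after seeing the data. Members described in full were the 6 with the highest mean, those past the threshold, and those with groups apart as deposited and at least 5 TPM in the higher group (up to 8 per comparison). For each pathway list up to 3 genes with the smallest adjusted p per comparison could be named, and other genes were named after their values were seen. Alternatives were median-of-ratios scaling, AL135790.1 left out, a pseudocount of 0.1, no filter or a mean of 5 TPM, robust empirical Bayes, a replicate block and each library left out. Promoter windows are from RefSeq and gene positions from GENCODE v29, both on GRCh38. Some genes of the pathway and marker lists are not reported here.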

Additional observations from a re-analysis of the deposited data

How the results depend on the processing

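No member passed the threshold (limma) in either comparison, or for the difference between them, under any alternative except 1: without Dox- replicate 3, 11 members passed for doxycycline, as did 2788 of 15127 genes overall (18.4%), among the members IRF1, BST2, PARP9, IFITM2 and IFITM1 (log2 changes 1.35, 1.36, 1.29, 1.10 and 1.13, adjusted p = 0.0342 for each). Leaving out 1 library at a time, the member calls ranged from 0 to 0 for ZNF683 and from 0 to 11 for doxycycline. The median log2 change ranged from -0.014 to 0.085 for ZNF683 (the highest without Mock library 2) and from 0.36 to 0.81 for doxycycline. The members with groups apart in either direction ranged from 4 to 12 for ZNF683, against 21.5% to 42.9% of all genes, and from 9 to 26 for doxycycline, against 11.4% to 51.0%. They numbered 6 for ZNF683 with median-of-ratios scaling, against 19% of all genes. Fits with that scaling and a Dox- library left out were added after seeing the data. The doxycycline median was then 0.46, 0.10 or 0.48 without Dox- library 1, 2 or 3, beside 0.16, 0.04 or 0.17 for all genes. In the same order 15, 9 or 13 members were apart, against 22.8%, 20.0% or 38.5% of all genes. With 1 library left out, the ISG15 change for ZNF683 ranged from -0.34 to 0.011 (without ZNF683 library 1) and the IFITM1 change from -0.36 to 0.075 (without Mock library 1), both reversing in sign at the upper end. Of 248 alternative values for 17 named member changes, the other 241 kept their direction and their side of the threshold, with limma adjusted p from 0.0342 to 0.999 over all 248. With no filter, a mean of 5 TPM, robust empirical Bayes or the replicate block, the log2 change equals the main one by construction. Direction could not change in those settings, so the count overstates how far it was tried. Deviations of same-numbered libraries from their group means correlated at 0.08, 0.05 and 0.36 for doxycycline and at -0.21, 0.07 and -0.25 for ZNF683. With 3 libraries per group these values cannot decide whether the numbers pair the samples. With the replicate block 0 members passed for ZNF683, 0 for doxycycline and 0 for the difference. Each group holds the same library numbers, so the block cannot move a log2 change or the groups apart. The medians (-0.0014 and 0.49) and the members apart (3 for ZNF683 and 8 for doxycycline) are therefore no check of it. Over all genes the block moved the calls from 5 to 0, from 60 to 34 and from 2 to 60. Other settings moved the whole-table calls from 5 to between 0 and 49 for ZNF683 and from 60 to between 0 and 2788 for doxycycline (1 with median-of-ratios scaling), and the causes were not tested. The depth of the libraries is unknown, so the precision of low values such as IFI44L cannot be given.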
